A study of Mus musculus with 3 samples.

Results

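Ch25h and 7 genes of sterol and lipid synthesis, Hmgcs1, Sqle, Idi1, Fdps, Insig1, Srebf2 and Scd2, were followed in single mouse esophageal cells, to see whether cells with Ch25h RNA held less RNA of the other 7. The 8 genes were taken by symbol from 32287 counted features, and all 8 were present. They were chosen by symbol, with earlier UMI levels of these same cells in view, so their levels are given as a description. The cells, called PC, came from esophageal organoids of Trp53 floxed/floxed mice, treated with Ad-Cre-EGFP to remove Trp53 and then edited with CRISPR/Cas9 at Cdkn2a. They expressed Cas9 constitutively, received a barcode library, were grown for 3 passages in serum-containing medium and were sorted as live RFP-positive cells. The labels name 3 libraries of this culture (gene expression, barcode and scar), and 1 matrix of unique molecule (UMI) counts was analysed. There was 1 sample with no control culture and no replicate. Differences between cells were therefore not checked against the spread between cultures, no test was made, and every interval covers counting error only. The PCN line, with Notch1 also removed, was not analysed here. The tissue label reads esophageal cancer, while the design describes organoid cultures.

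Cells hold cholesterol near a set level through SREBP-2, a membrane-bound transcription factor encoded by Srebf2. When sterol in the endoplasmic reticulum is low, SREBP-2 is carried to the Golgi, cut and released to the nucleus, where it raises the genes of cholesterol synthesis and uptake. Insig proteins hold it back when sterol is high. Ch25h encodes cholesterol 25-hydroxylase, which makes 25-hydroxycholesterol, an oxysterol that binds Insig proteins and also activates LXR receptors. Ch25h is known as a gene induced by interferon and inflammatory signals in macrophages.

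Of the 18116 deposited barcodes, all distinct, 14925 reached 500 genes and 1000 UMIs with no more than 20% of UMIs from mitochondrial genes. These cells had 45443280 UMIs together, and the median cell had 2955. A Ch25h UMI was present in 2615 cells (median depth 3467 UMIs, counted without Ch25h) and absent in 12310 (2854 UMIs). Clustering without the 8 genes and other sterol genes gave 12 clusters, numbered by size. Cluster 4 was cycling-like and cluster 5 mesenchymal-like by their markers. The others are called by number and leading genes. Among immune markers C1qa, Adgre1 and Tyrobp had no UMI, and Ptprc and Lyz2 had 1 each, in all kept cells. Cd68 had 339 UMIs, Cd74 44 and Csf1r 31. Of the endothelial markers, Cdh5, Cldn5 and Emcn had no UMI, while Pecam1 had 56, Tek 7 and Kdr 2.

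The bases just upstream of the start sites are shown for 4 of the genes, because they hold the motif letters described after them. They are RefSeq windows of 250 bases on GRCm38.p6, each 5′ to 3′ on the gene's strand. Capitals mark a CREB-type palindrome in Ch25h, an SREBP-type match in Hmgcs1 and Srebf2, and an E-box in Insig1. The windows are chr19:34475149-34475398 (minus strand) for Ch25h, chr13:119690101-119690350 for Hmgcs1, chr15:82147019-82147268 for Srebf2 and chr5:28071162-28071411 for Insig1, the latter 3 on the plus strand. Their start sites are those of RefSeq and differ from the GENCODE gene starts given below. The windows of Ch25h, Srebf2 and Insig1 reach into the genes as GENCODE places them.
Ch25h: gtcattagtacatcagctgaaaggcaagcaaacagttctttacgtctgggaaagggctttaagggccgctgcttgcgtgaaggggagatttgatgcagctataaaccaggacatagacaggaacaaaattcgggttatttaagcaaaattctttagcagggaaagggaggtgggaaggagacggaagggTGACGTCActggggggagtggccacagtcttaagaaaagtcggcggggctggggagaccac
Hmgcs1: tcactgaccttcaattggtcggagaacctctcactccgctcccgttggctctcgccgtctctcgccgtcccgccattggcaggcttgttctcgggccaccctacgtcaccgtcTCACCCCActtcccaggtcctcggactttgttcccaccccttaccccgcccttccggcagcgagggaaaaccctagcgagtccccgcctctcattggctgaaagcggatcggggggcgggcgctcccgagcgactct
Srebf2: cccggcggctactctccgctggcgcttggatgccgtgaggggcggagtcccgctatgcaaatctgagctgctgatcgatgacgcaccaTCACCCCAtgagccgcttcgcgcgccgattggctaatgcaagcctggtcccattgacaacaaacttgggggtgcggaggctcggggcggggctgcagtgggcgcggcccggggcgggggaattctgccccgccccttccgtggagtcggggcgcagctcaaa
Insig1: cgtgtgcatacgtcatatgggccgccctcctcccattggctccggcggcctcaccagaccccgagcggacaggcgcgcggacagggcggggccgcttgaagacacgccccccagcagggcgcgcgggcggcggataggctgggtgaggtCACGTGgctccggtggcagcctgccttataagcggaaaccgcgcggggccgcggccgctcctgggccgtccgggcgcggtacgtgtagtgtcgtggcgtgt

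Of the 8 genes, 5 were in the RefSeq promoter table (those above and Idi1), and Sqle, Fdps and Scd2 were not. Letters searched on both strands were TCACNCCA for SREBP, CCAAT for NF-Y, TGACGTCA for CREB and CACGTG for the E-box, and they were chosen after the sequences had been seen. The Ch25h window held TGACGTCA at positions -61 to -54 from the start site and none of the other letters. Of 32851 windows of this length, 1.55% held it. TCACCCCA stood at -137 to -130 in Hmgcs1 and at -162 to -155 in Srebf2, and 3.67% of windows held TCACNCCA. The E-box of Insig1 stood at -101 to -96, and 6.02% of windows held 1. CCAAT, read on the other strand, was in the windows of Hmgcs1, Idi1, Insig1 and Srebf2, against 33.85% of all windows. These matches describe letters only.

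Ch25h (ENSMUSG00000050370) lies on chromosome 19, 34473778 to 34475164, minus strand, as a gene of 1 exon in GENCODE M21 on GRCm38. Kept cells held 4434 of its UMIs, or 97.6 per 1000000 UMIs (CPM; 95% interval 94.7 to 100.5), and at most 14 UMIs in a cell. It was found in 17.5% of cells (exact interval 16.9% to 18.1%). After each cell was thinned at random to 1500 UMIs, which 13281 cells reached, the share was 10.6%. Its variance over thinned cells was 1.54 times its mean, against 1.00 for Srebf2 and 1.198 for Hmgcs1, so its UMIs were the more unevenly spread. Gm26902 overlaps Ch25h on the other strand and had 546 UMIs. Whether counting used the strand is not given in the sources used here, so reads of the pair cannot be told apart.

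Ch25h RNA differed widely between clusters. It was highest in cluster 11, led by the interferon-induced genes Ifit3b, Ifit3 and Rsad2, at 226.9 CPM (179.0 to 283.5). Cluster 2, led by Lcn2, Gabrp and Krt19, followed at 183.8 CPM (175.5 to 192.4), cluster 6 at 150.6 and cluster 3, led by Prl2c3 and Prl2c2, at 128.2 (121.0 to 135.7). The intervals of neighbours in this order overlapped among these 4 clusters, and did not overlap between cluster 3 and the next lower. That was the cycling-like cluster 4, at 82.6 CPM (76.3 to 89.1). Clusters 7, 8, 12, 1, 9 and 10 ran from 73.2 down to 18.8 CPM, each overlapping the next.

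The mesenchymal-like cluster 5 was lowest, at 11.2 CPM (8.81 to 13.99), and its interval overlapped that of cluster 10. A Ch25h UMI was in 2.59% of its cells (median 3345 UMIs) and in 31.9% of the cells of cluster 2 (median 3248 UMIs). Thinned, these shares were 1.14% and 19.2%. The share in cluster 2 was far above that in cluster 5 at a like median depth. The part of free RNA in either share was not tested.

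**Figure D1:**
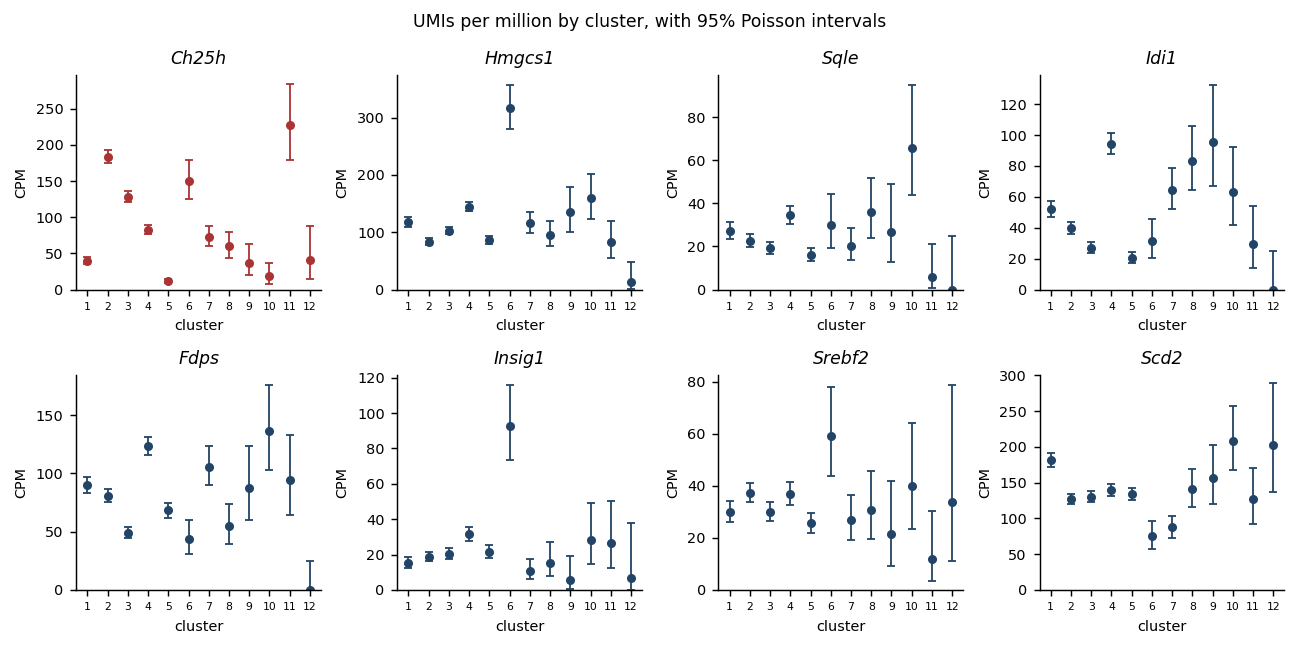
CPM (vertical axis, starting at 0) of the 8 genes in each of the 12 clusters (horizontal axis), from UMIs summed over the cluster's cells, with bars for exact 95% Poisson intervals. Ch25h is highest in clusters 11, 2, 6 and 3 and lowest in cluster 5, Hmgcs1 and Insig1 stand highest in cluster 6, and Idi1, Fdps and Sqle have no UMI in cluster 12.

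The synthesis enzymes had their own order. Hmgcs1 (chromosome 13, 119690379 to 119708260, plus strand) encodes the cytosolic HMG-CoA synthase, an early enzyme of the pathway. It had 110.3 CPM (107.3 to 113.4) and a UMI in 24.7% of cells. Gm48342 on its other strand had 27 UMIs. Idi1 (chromosome 13, 8885501 to 8892451, plus strand) encodes isopentenyl diphosphate isomerase and had 47.5 CPM (45.5 to 49.6), with a UMI in 11.4% of cells. Fdps (chromosome 3, 89093588 to 89101959, minus strand) encodes farnesyl diphosphate synthase and had 81.35 CPM (78.75 to 84.0), in 19.3%. Sqle (chromosome 15, 59315077 to 59331192, plus strand) encodes squalene epoxidase, the first step of the pathway that uses oxygen, and had 24.25 CPM (22.8 to 25.7), in 6.80%. These levels are of the 3' ends of transcripts and are not divided by length. They rank UMIs and not protein.

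Idi1 and Fdps were high in the cycling-like cluster 4, at 94.2 CPM (87.5 to 101.2) and 123.3 CPM (115.6 to 131.3). In cluster 3 they had 27.1 CPM (23.8 to 30.6) and 49.1 CPM (44.7 to 53.8), so that cluster 4 held both at intervals well above cluster 3. Cluster 3 was among the 4 clusters highest in Ch25h, but cluster 2, higher in Ch25h, had 39.6 CPM of Idi1 and 80.85 CPM of Fdps. Sqle was highest in cluster 10, led by Ly6c1 and Pate14, at 65.7 CPM (43.7 to 95.01), and its interval overlapped that of cluster 8 at 35.8 CPM.

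The regulators followed another pattern. Insig1 (chromosome 5, 28071363 to 28078662, plus strand), itself a target of SREBP-2, had 22.2 CPM (20.9 to 23.6) and a UMI in 6.18% of cells. Srebf2 (chromosome 15, 82147181 to 82205379, plus strand) had 32.4 CPM (30.8 to 34.1), in 9.14%. Cluster 6, led by Zfpm2, Aff2 and Immp2l, had 92.8 CPM of Insig1 (73.2 to 115.9) and 316.9 CPM of Hmgcs1 (279.7 to 357.6), and neither overlapped any other cluster. Elsewhere Insig1 lay between 5.32 and 31.6 CPM. Hmgcs1 lay between 82.5 and 159.6 CPM in 10 clusters and at 13.5 CPM in cluster 12. Srebf2 was also highest in cluster 6, at 59.0 CPM (43.7 to 78.05), overlapping cluster 10 at 39.9 CPM. The same cells were low in Fdps, at 43.4 CPM, and in Idi1, at 31.3 CPM. The median cell of cluster 6 had 1185 UMIs, of which mitochondrial genes gave 10.4%, against 2.76% over all kept cells, and the part of these features in its values was not tested.

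Scd2 (chromosome 19, 44293674 to 44306864, plus strand) encodes a stearoyl-CoA desaturase, which makes monounsaturated fatty acids, and stands outside the cholesterol pathway. It had 138.5 CPM (135.1 to 142.0) and a UMI in 31.8% of cells. It ran from 74.7 CPM in cluster 6 (57.3 to 95.8) to 208.9 CPM in cluster 10 (167.8 to 257.1), with cluster 12 at 202.6 CPM and cluster 1, led by Krt7 and Sorbs2, at 181.9 CPM. Cluster 6 was thus highest in Hmgcs1 and Insig1 and lowest in Scd2, where its interval overlapped that of cluster 7 at 87.3 CPM.

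The main question was whether cells with Ch25h RNA held fewer UMIs of the other 7 genes at like depth. A deeper cell yields more UMIs of any gene, so the UMIs observed in the 2615 cells were divided by those expected from the rates of cells without Ch25h in the same of 20 depth bins. A second ratio was taken within cluster and 5 depth bins. A gene was called at a change of 1.2-fold or more with an interval that left out 1 and at least 20 expected UMIs. At like depth, 13.7% of 11697 genes tested were called lower and 8.45% higher, and none of the 7 was called. At like depth and cluster, 3.31% of 11497 were called lower and 4.38% higher, and again none of the 7 was called. With a call at 1.5-fold these shares were 6.33% and 2.2% at like depth and 1.2% and 0.983% with cluster.

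Hmgcs1 had the clearest shortfall. Cells with Ch25h held 886 Hmgcs1 UMIs where 1031 were expected, a ratio of 0.859 (0.798 to 0.925), and 0.863 (0.799 to 0.932) at like depth and cluster. Sqle had 202 UMIs against 234.8 expected, a ratio of 0.860 (0.736 to 1.005), and 0.845 (0.719 to 0.993) with cluster. Both were smaller than the 1.2-fold change that a call needed. At like depth Hmgcs1 was called lower in cells with at least 2 Ch25h UMIs (0.833, 0.7415 to 0.935) and with at least 3 (0.810, 0.6865 to 0.956), and not with cluster. Sqle was called lower with cluster under a stricter cell filter (0.831) and a finer clustering (0.832). In thinned cells the ratio of Hmgcs1 at like depth was 0.966 (0.841 to 1.11), an interval that held both 1 and 0.859. There Ch25h was also read from the thinned counts, which left 1407 cells with a Ch25h UMI. Some cells with Ch25h at full depth thus stood among those without, so this run cannot show whether the shortfall was present.

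The other 5 genes had ratios nearer 1 than Hmgcs1 and Sqle. Ratios at like depth were 0.971 (0.873 to 1.08) for Idi1, 1.01 (0.935 to 1.10) for Fdps, 0.948 (0.810 to 1.11) for Insig1, 0.966 (0.849 to 1.10) for Srebf2 and 0.971 (0.911 to 1.03) for Scd2. With cluster they were 0.988, 1.04, 0.9415, 0.904 and 1.01, and every interval held 1. At like depth the intervals of Insig1 and Srebf2 also held the 0.859 of Hmgcs1, so they cannot show whether a shortfall of that size was present. With the finer clustering Srebf2 had 0.863 (0.752 to 0.989), an interval that left out 1, and was not called. The median ratio of the 7 genes was 0.966 at like depth and 0.9415 with cluster, against 0.980 and 0.997 for all genes tested. The ratio was under 1 for 6 of 7 and 5 of 7, against 55.7% and 51.15% of all genes tested.

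Summed over the 7 genes, 4089 UMIs were observed and 4330 expected, a ratio of 0.944 (0.912 to 0.978). With cluster it was 0.956 (0.922 to 0.992). The interval at like depth held 1 with cells thinned to 1500 UMIs (0.968, 0.905 to 1.036) and with at least 3 Ch25h UMIs (0.969, 0.90 to 1.043). The interval no longer left out 1 with cluster when cells in the top 10% of doublet scores were removed (0.981, 0.943 to 1.02) or at least 2 Ch25h UMIs were asked for (0.9625, 0.911 to 1.02). With cells thinned to 1500 UMIs the ratio with cluster was 1.01 (0.943 to 1.08). For both thinned ratios Ch25h was read from the thinned counts too. The counts of Hmgcs1 are more uneven than Poisson counts, so intervals that allow for this would be wider than those printed.

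**Figure D2:**
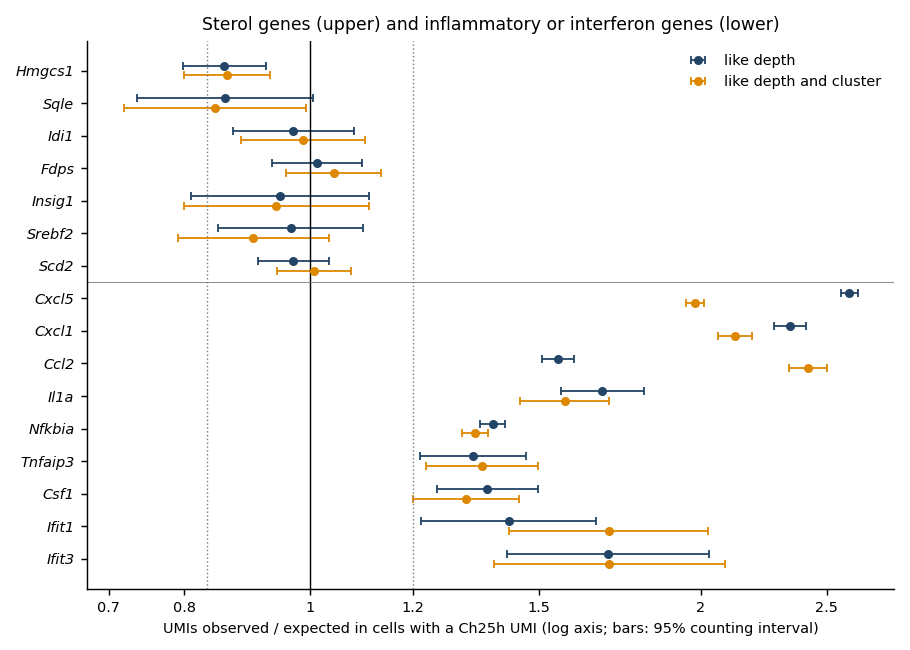
UMIs observed in cells with a Ch25h UMI over UMIs expected from cells without (log axis), at like depth (blue) and at like depth and cluster (orange), with bars for 95% counting intervals, a solid line at 1 and dotted lines at the 1.2-fold call. The 7 sterol genes lie between 0.845 and 1.04, while the chemokines Cxcl5 and Cxcl1 lie between 1.98 and 2.60.

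The sum did not fall steadily with the number of Ch25h UMIs in a cell. It was 461.7 CPM (454.7 to 468.8) in cells with 0 Ch25h UMIs, 438.5 (421.8 to 455.8) with 1, 417.3 (388.1 to 448.2) with 2 and 415.9 (379.8 to 454.4) with 3 to 4. In the 114 cells with 5 or more it was 546 CPM (483.3 to 614.7), the highest of the 5 groups. Hmgcs1 alone had 114.4, 96.85, 93.7, 78.9 and 111.6 CPM in the same groups. Median depth was 2854 UMIs in cells with 0 Ch25h UMIs and 4218 in cells with 5 or more. These levels are not matched for depth or cluster.

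**Figure D3:**
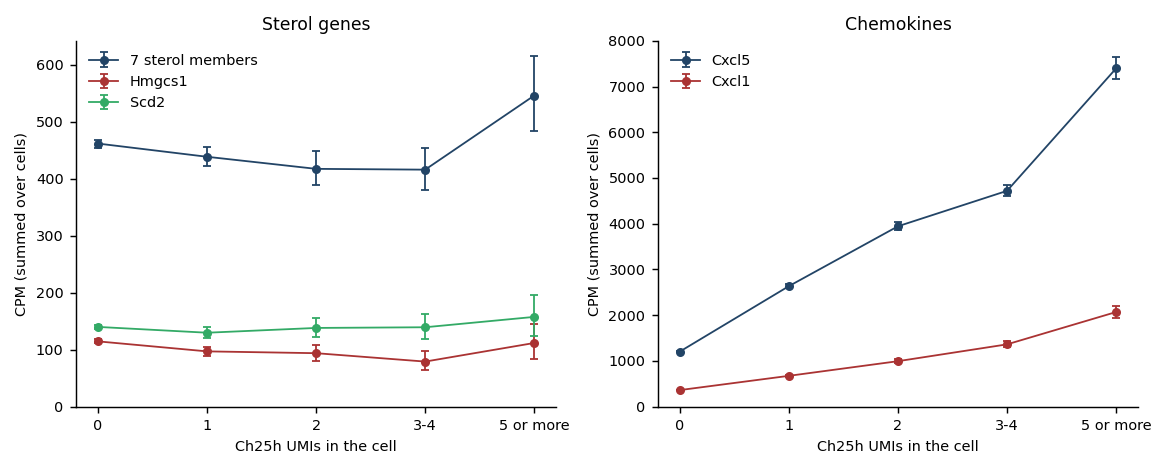
CPM summed over cells (vertical axes, starting at 0) by the number of Ch25h UMIs in the cell (horizontal axes) for the sum of the 7 sterol genes, Hmgcs1 and Scd2 (left) and the chemokines Cxcl5 and Cxcl1 (right), with exact 95% Poisson intervals. The sterol sum stays between 415.9 and 546 CPM, while Cxcl5 rises from 1203 to 7395 CPM.

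Across depth the shortfall was uneven. In the shallowest of 5 equal groups of cells the sum of the 7 genes was 500 CPM (430 to 578.2) with Ch25h and 502 CPM (480.2 to 524.6) without. In the middle group it was 378.7 CPM (347.7 to 411.7) with and 440.3 CPM (425.2 to 455.7) without, and these intervals did not overlap. In the deepest group it was 464.5 CPM (444.5 to 485.1) with and 484.2 CPM (470.9 to 497.8) without. From the shallowest group to the deepest, Hmgcs1 had 162.1, 105.5, 86.1, 101.2 and 86.6 CPM with Ch25h and 157.1, 107.5, 113.3, 106.8 and 109.0 CPM without. The Hmgcs1 intervals did not overlap in the middle and the deepest group. Fdps was also lower in the middle group, with 55.1 CPM (43.7 to 68.6) with Ch25h and 75.2 CPM (69.1 to 81.8) without. Insig1 went the other way in the shallowest group. There it had 57.7 CPM (35.7 to 88.2) with Ch25h, from 21 UMIs, and 26.8 CPM (21.95 to 32.4) without.

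Over all kept cells, 20 cholesterol synthesis genes, among them Hmgcs1, Idi1, Fdps and Sqle, had a summed ratio of 0.967 (0.942 to 0.992) at like depth. With cluster it was 0.957 (0.932 to 0.984). The sum of Hmgcs1, Sqle, Idi1, Fdps and Insig1 had 0.929 (0.889 to 0.9715) and with cluster 0.939 (0.897 to 0.984). These sums were not taken under the alternative settings. Within clusters the ratio of the 20 genes took both directions. It was 0.748 (0.672 to 0.832) in cluster 1, 0.7545 (0.626 to 0.910) in cluster 5 with only 51 cells with Ch25h, and 0.936 (0.888 to 0.986) in cluster 4. In clusters 2 and 3, which hold 949 and 721 of the cells with Ch25h, it was 1.00 (0.956 to 1.05) and 0.980 (0.928 to 1.035). In cluster 7, led by Krt16 and Sncg, it was 1.19 (1.02 to 1.38). Cluster 6 had 0.938 (0.786 to 1.12). Hmgcs1 was under 1 in 6 of these 7 clusters, with intervals below 1 in clusters 1, 2 and 6 (0.751, 0.844 and 0.663), and was 1.17 in cluster 7.

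All 20 genes of the cholesterol synthesis set were tested. At like depth 2 were called lower and 2 higher (13.7% and 8.45% of all genes tested), and none with cluster. Lower were Pmvk, encoding phosphomevalonate kinase, at 0.746 (0.601 to 0.926) and Sc5d, a late desaturase, at 0.805 (0.728 to 0.8895). Among those called higher was Mvd, encoding mevalonate diphosphate decarboxylase, at 1.27 (1.02 to 1.58). The median ratio was 0.980, equal to that of all genes tested, and 0.956 with cluster against 0.997. Of 7 uptake and transport genes, 3 were called lower and 1 higher at like depth (13.7% and 8.45% of all genes tested). None was called with cluster. Among the 7, Stard4, a sterol carrier, had 0.7235 at like depth and 1.01 with cluster, and Lrp1 had 0.832 and 1.08.

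Of 8 LXR genes, 6 had enough UMIs. At like depth 2 were called lower and 1 higher (13.7% and 8.45% of all genes tested). With cluster 1 was called lower and 1 higher (3.31% and 4.38%). Abca1, a cholesterol exporter and LXR target, had a ratio of 0.9645 at like depth and 1.33 (1.10 to 1.62) with cluster, where it was called higher. Abcg1 had 1.33 (0.999 to 1.77) with cluster and was not called. Lpcat3, also an LXR target, was called lower in both, at 0.716 and 0.737 (0.605 to 0.898). The LXR targets thus differed in direction. Of 7 genes of oxysterol enzymes and receptors, Gpr183, the receptor of a Ch25h-derived oxysterol, had 1 UMI in all kept cells. Cyp7b1, which hydroxylates oxysterols further, had 0.957 and 1.16 and was not called.

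Among the genes that rose with Ch25h were inflammatory genes. These and the interferon genes were not held out of the clustering. Of 10 inflammatory genes 8 were tested and 7 were called higher in both comparisons. Of all genes tested, 8.45% were called higher at like depth and 4.38% with cluster. Cxcl5, a neutrophil chemokine, had 2.60 and with cluster 1.98 (1.95 to 2.01). Cxcl1 had 2.34 and 2.12, Ccl2 had 1.55 and 2.42, and Il1a had 1.68 and 1.57. The others were Nfkbia and Tnfaip3, feedback inhibitors of NF-kB, and Csf1. Ptgs2 was lower at like depth, at 0.7175, and had 1.17 with cluster, not called. Cxcl5 went from 1203 CPM in cells without Ch25h to 7395 CPM in cells with 5 or more UMIs.

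Of 8 interferon response genes, 4 were called higher in each comparison, against 8.45% and 4.38% of all genes tested. Ifit1 had 1.42 and 1.70 and Ifit3 had 1.695 and 1.70. Isg15 was called lower at like depth, at 0.804, and higher with cluster, at 1.24, and Bst2 went from 0.911 to 1.29. Cell classes moved too, where 13.7% of all genes tested were called lower and 8.45% higher at like depth. All 8 tested of 10 mesenchymal markers were called lower at like depth. Their summed level was 52.7 CPM with Ch25h and 399.7 CPM without. Of 8 cycling markers 7 were also called lower at like depth (547.3 and 578.0 CPM). Of 8 simple epithelial markers 7 were tested, and 6 were called higher and 1 lower at like depth, with 2498 CPM with Ch25h and 1933 CPM without. With cluster, 2 of them were called higher and 1 lower. The ratios at like depth and cluster were taken for this reason.

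The genes most like Ch25h over the 13281 thinned cells, by Pearson's r of log counts among 4655 genes, were Cxcl5 (0.26), Cxcl1 (0.189), Cxcl3 (0.1785), Ppbp (0.1705) and Cxcl2 (0.138), all CXC chemokines. Among the sterol genes, Hmgcs1 had -0.0044, Idi1 -0.0052, Fdps -0.0088 and Scd2 0.0016. For the sum of Hmgcs1, Sqle, Idi1, Fdps and Insig1 the most like were Cyp51 (0.148), Msmo1 (0.1345), Ppbp (0.121), Ptma (0.116) and Fgfbp1 (0.114), the first a pair of sterol enzymes. These values are weak, come from cells of 1 culture at 1 depth, and are a description.

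The sterol synthesis genes were found together in the same cells more often than their shares give, and Ch25h showed no departure beyond counting error. In thinned cells, 174 held both Idi1 and Fdps where 87.8 were expected from their shares, 1.98 times (1.70 to 2.30). Within clusters this was 1.73. Sqle with Idi1 had 1.98 and Hmgcs1 with Idi1 1.865 (1.62 to 2.13). Of the 10 pairs among Hmgcs1, Sqle, Idi1, Fdps and Insig1, 9 had intervals above 1, also within clusters, and the exception was Fdps with Insig1 at 1.28. Srebf2 with the other 6 had ratios from 1.00 to 1.40, and every interval held 1. Ch25h with the 7 ran from 0.872 for Sqle to 1.14 for Insig1, and every interval held 1. With Hmgcs1 (0.829 to 1.11) and Sqle (0.636 to 1.17) the intervals also held the ratios of 0.859 and 0.860 from full counts. These pairs therefore cannot show whether shortfalls of that size were present.

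**Figure D4:**
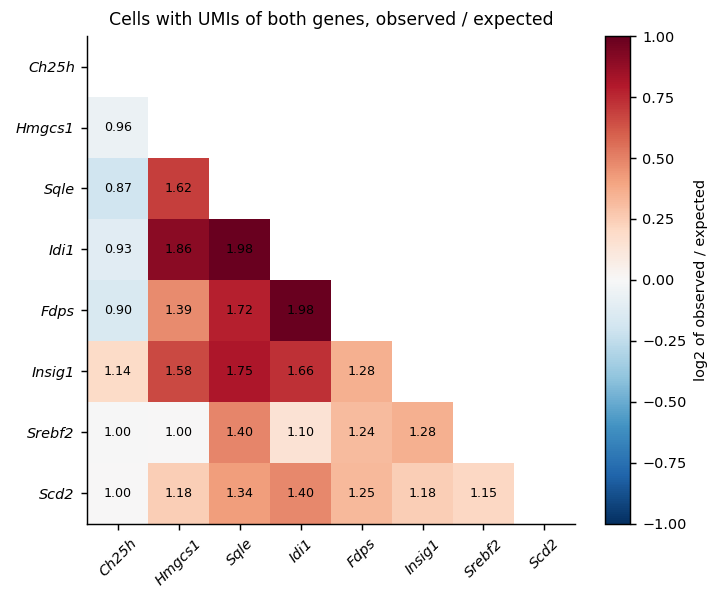
Cells with UMIs of both genes divided by the number expected from the 2 shares, for each pair of the 8 genes in 13281 cells thinned to 1500 UMIs, with colour for its log2. The pairs among the synthesis enzymes and Insig1 lie between 1.28 and 1.98, and those with Ch25h between 0.872 and 1.14.

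The least sterol gene RNA was found in cluster 12, a group of 74 cells chosen for description after its values were seen. Its leading genes were Egln3, Ero1l, Ndrg1, Bnip3 and Slc2a1, genes known to be induced when oxygen is low, and oxygen was not measured. The 20 cholesterol genes had 37 UMIs there where 122 were expected at like depth from the other cells, a ratio of 0.303 (0.220 to 0.419). Of the 9 with at least 5 expected UMIs, 6 were called lower by 2-fold, and none higher, against 6.85% lower and 3.57% higher of the 4757 genes tested. Among them were Hmgcs1 (2 UMIs, 18.99 expected), Idi1 (0 and 6.87), Fdps (0 and 10.95), Cyp51 (2 and 9.74) and Msmo1 (3 and 19.2). Sqle also had 0 UMIs, where 3.83 were expected at like depth. Its ratio was 0 (0 to 0.963), with too few expected UMIs for a call. In CPM, not matched for depth, the exact interval of 0 UMIs reaches 24.9, above the 24.3 CPM of Sqle in the other cells.

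Lists off the cholesterol pathway differed in cluster 12. Scd2 had 30 UMIs where 21.3 were expected, 1.41 times (0.981 to 2.02). The 11 fatty acid synthesis genes, Scd2 among them, had a ratio of 0.960 (0.749 to 1.23). Scd2 gave 30 of their 63 UMIs, and the ratio without it was not taken. The 7 genes that control SREBP had 0.9655 (0.685 to 1.36). The 7 uptake and transport genes had 0.763 (0.588 to 0.990), and the 7 oxysterol enzymes and receptors 0.520 (0.331 to 0.817), among them Cyp7b1, called lower with 6 UMIs and 24.1 expected. Srebf2 itself had 5 UMIs and 4.52 expected. Housekeeping genes were not level either. Actb had a ratio of 0.584 (0.529 to 0.644), Ppia 0.703, Rplp0 0.8855, Eef1a1 0.919 and Hprt 1.655, while the glycolytic Gapdh had 2.40 and Pgk1 5.29, both called higher. Ch25h had 6 UMIs and 11.45 expected, a ratio of 0.524 with an interval that held 1 (0.192 to 1.14).

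**Figure D5:**
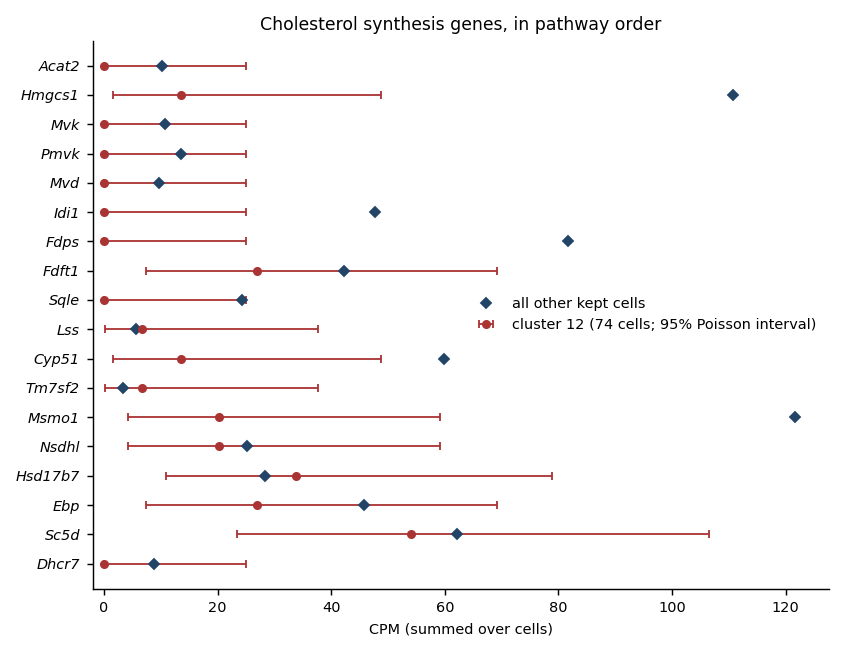
CPM (horizontal axis) of cholesterol synthesis genes in pathway order in cluster 12 (circles, with exact 95% Poisson intervals, 74 cells) and in all other kept cells (diamonds). The diamonds of Hmgcs1, Idi1, Fdps, Cyp51 and Msmo1 lie beyond the intervals of cluster 12.

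Outside cluster 12, the cells were ranked by their share of UMIs from 10 genes picked after the data were seen (Bnip3, Ndrg1, Slc2a1, Ankrd37, Egln3, Ero1l, Adm, Pdk1, Car9 and Vegfa). The highest 5%, 743 cells, had 566.1 CPM (532.3 to 601.4) of the 20 cholesterol genes, against 829.7 CPM (821.2 to 838.4) in the other cells. At like depth and cluster the ratio was 0.773 (0.726 to 0.823). Of 14 tested genes 6 were called lower, among them Hmgcs1, Pmvk, Fdps, Cyp51 and Msmo1, against 3.47% of 8213 genes. Hmgcs1 had 0.6895 (0.578 to 0.823) and Fdps 0.703 (0.571 to 0.866). Scd2 had 1.06 (0.9345 to 1.203) and Ch25h 1.22 (1.04 to 1.42). Cluster 5 supplied 25.6% of these cells and 12.6% of the others.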

How the data were processed

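One matrix of UMI counts was analysed, deposited as whole numbers of molecules per gene and barcode, not normalized. Per the file headers it was written by Cell Ranger 8.0.1. The submitters' processing notes name mm10, Cell Ranger and Scanpy 1.8.2. The annotation is not given in the sources used here. No source names which of the 3 libraries the reads came from. The matrix therefore stood as 1 pooled sample, although the design had assumed that it held the gene expression library alone.

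Kept cells reached 500 genes and 1000 UMIs with no more than 20% of UMIs from mitochondrial genes, and their 5th and 95th percentiles were 1218 and 5247 UMIs. Doublet scores (Scrublet, expected rate 5%) called 1 of 14925 cells, too few for a working call, so doublets were not removed. Counts scaled to 10000 per cell and log-transformed were clustered in scanpy 1.11.5 with Leiden (igraph 0.11.9), resolution 0.6, 15 neighbours, 30 principal components and 2000 variable genes. A set of 63 genes (the 8 genes, the sterol, fatty acid, LXR, oxysterol and SREBP lists, and the added sequences GFP and Scar) was held out. A cluster took a "-like" name from its marker list, and the scoring was set after the clusters were seen. Leading genes were detected in at least 25% of a cluster's cells.

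CPM and its exact Poisson 95% interval came from UMIs summed over cells, and shares have Clopper-Pearson intervals. Ratios used the exact Poisson interval under 10 UMIs. The members and lists were chosen with earlier results of these data known. The genes named are the 8 members, list members that were called, and the 5 genes most like Ch25h and the 5 most like the summed synthesis genes, among those whose mean thinned count reached 0.05. Exceptions, among them cluster 12, were chosen after their values were seen. Calls were tested on counts simulated as independent Poisson draws in each bin. Such draws cannot show how calls behave with counts more uneven than Poisson. Values of some list members are not reported here. Of the 32287 feature IDs, 32158 were found in GENCODE M21, the source of gene positions. Alternatives changed the cell filter, depth bins, depth measure, thinning, Ch25h threshold, clustering, doublet scores, fold and minimum of expected UMIs.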

Additional observations from a re-analysis of the deposited data

How the results depend on the processing

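No paired analysis was possible because there was 1 sample with no replicate. The ratio of the 7 genes at like depth stayed between 0.935 and 0.969 under every alternative run. With cluster it stayed between 0.938 and 0.981, except 1.011 with cells thinned to 1500 UMIs and 1.006 with at least 3 Ch25h UMIs (the latter added after seeing the data), and the cause was not tested. Single-gene ratios moved in 8 of 161 alternatives and ranged from 0.810 to 1.21. Genes called numbered 2594 at like depth and 884 with cluster. The first was 1506 with thinned cells, where fewer UMIs were left, and a 1.5-fold call gave 997 and 251. A clustering at resolution 1.0 gave 413 lower and 375 higher, against 380 and 504. The Ch25h level was 101 CPM under the filter of 1000 genes and 2000 UMIs, and Hmgcs1 105.1 CPM. Without GFP, Scar and mitochondrial UMIs in the total, levels were 103.6 CPM for Ch25h, 117.2 for Hmgcs1, 25.76 for Sqle, 50.47 for Idi1, 86.42 for Fdps, 34.45 for Srebf2 and 147.2 for Scd2, by construction higher. The cholesterol ratio in cluster 12 was 0.293 to 0.340 in 5 alternatives added after seeing the data. Depth limits the genes with few UMIs most: in cluster 12, 11 of the 20 cholesterol genes had under 5 expected UMIs and were not called either way.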

Other observations

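Cyp7b1, an enzyme that hydroxylates 25-hydroxycholesterol and other oxysterols, was unevenly spread between clusters. It had 567.5 CPM (517.4 to 621.1) in cluster 6, 444.3 CPM (379.5 to 517.0) in cluster 9, led by Arl4a and Chsy3, and 238.0 CPM (226.5 to 249.8) in the mesenchymal-like cluster 5. Clusters 2 and 4 had 77.2 and 69.4 CPM, and cluster 12 had 40.5 CPM (14.9 to 88.2). The mesenchymal-like cluster, lowest in Ch25h, was thus among the 3 highest in Cyp7b1, while cluster 6 was high in both. Abca1, a cholesterol exporter, had 44.4 CPM (39.55 to 49.7) in cluster 5 and 2.78 CPM (1.74 to 4.21) in the cycling-like cluster 4.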
